A study of Mus musculus with 8 samples.

Results

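The 10 genes described here mark the macrophages that live in the healthy heart, and they were chosen by symbol from a count table of 33105 mouse genes. They are Cd163, Mrc1, Lyve1, Folr2, Timd4, F13a1, Cbr2, Clec10a, Cd209f and Pla2g7. Each matched 1 Ensembl gene of the table, and all 10 passed the filter on low counts that left 16603 genes tested. Heart tissue of C57BL/6J mice was compared between 4 libraries labelled Sham and 4 labelled MR, in mice operated on with a minimally invasive method that makes the mitral valve leak (mitral regurgitation). A leaking valve loads the heart with volume, and the series asked which signalling pathways and genes go with the hypertrophy that follows. The sources used here do not give the age or sex of the mice, the chamber sampled, the time after surgery or whether each library is a separate animal, so p-values measure the spread between libraries, which may be technical. The title numbers of Sham and MR libraries fall in separate blocks, so any difference in handling and the effect of MR cannot be told apart.

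Resident cardiac macrophages are a long-lived population that renews largely without input from blood monocytes. They clear dying cells and debris, take up haemoglobin complexes and glycoproteins, and lie along vessels and muscle cells. Their surface receptors include scavenger and lectin-type proteins, and monocytes that enter an injured heart carry less of these transcripts and more of Ccr2. Several of the 10 genes are not macrophage genes alone: Lyve1 is also made by lymphatic endothelium, Clec10a by a class of dendritic cells, and F13a1 by monocytes and megakaryocytes.

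Total counts were 42291511 to 58658094 per library, and values are given as CPM, counts relative to library size after scaling by the trimmed mean of M-values (TMM). A total of 3 counts, the upper limit that a count of 0 allows, was 0.0502 to 0.0711 CPM, which covers counting error only. Macrophage RNA was present in every library: all 15 pan-macrophage markers were tested, and their summed level was 372 to 422 CPM in Sham and 426 to 478 CPM in MR. The lysozyme gene Lyz2 alone gave 138 to 164 CPM of that sum in Sham and 168 to 193 CPM in MR. In bulk tissue, fewer cells of a type and less RNA per cell cannot be told apart. Neutrophil markers set the Sham libraries apart from each other, with a summed level of 41.8, 13.2, 8.85 and 78.5 CPM in Sham replicates 1 to 4 and 3.32 to 6.27 CPM in MR. Of all genes tested, 76 passed an adjusted p of 0.05 (0.458%), 40 higher and 36 lower in MR. That split was 53 and 17 with scaling by library totals alone, and 91 and 695 with scaling to the pan-macrophage markers. Leaving out Sham replicate 3 raised the total to 887, and leaving out Sham replicate 2 lowered it to 3.

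The resident markers did not move as 1 block in MR hearts. Clec10a and Pla2g7 fell, by 47.2% and 34.6%. Among the abundant markers, Cd163, Mrc1 and F13a1 had log2 fold changes of −0.36, −0.29 and −0.23 with no overlap between groups. They did not pass the test over all genes. Cbr2 and Lyve1, also abundant, were at −0.18 and −0.1 with groups that overlapped, and did not pass. Timd4 and Folr2, a pair of receptors at low level, had positive fold changes that did not pass. Of the 10 genes, 2 were lower and 0 higher past an adjusted p of 0.05, where 0.217% of all tested genes were lower and 0.241% higher. All MR values lay below all Sham values in 5 of the 10, against 3.91% of all genes tested, and in 0 of the 10 did all MR values lie above (8.09% of all genes tested had groups apart in either direction). The median log2 fold change was −0.21 over the 10 genes and 0.00193 over all genes tested, and 7 of the 10 were negative. At an unadjusted p under 0.05 in edgeR there were 6 of the 10, 5 lower and Timd4 higher, against 2502 of all 16603 genes. The count of markers lower past the threshold depended on the tool: 5 in DESeq2 (1.88% of its genes) and 4 in limma-voom (1.26%). In edgeR it was 3 without Sham replicate 3 (2.32% of all genes lower, 5.28% called in either direction), 5 with a trend in exon length removed (1.14% and 1.83%) and 4 without a filter on low counts (1.37% and 3.06%). It was 1 without robust moderation, and 0 with scaling by library totals alone or a filter at 1 CPM. It was also 0 with a pan-macrophage or neutrophil score as a covariate, and when any library other than Sham replicate 3 was left out.

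**Figure D1:**
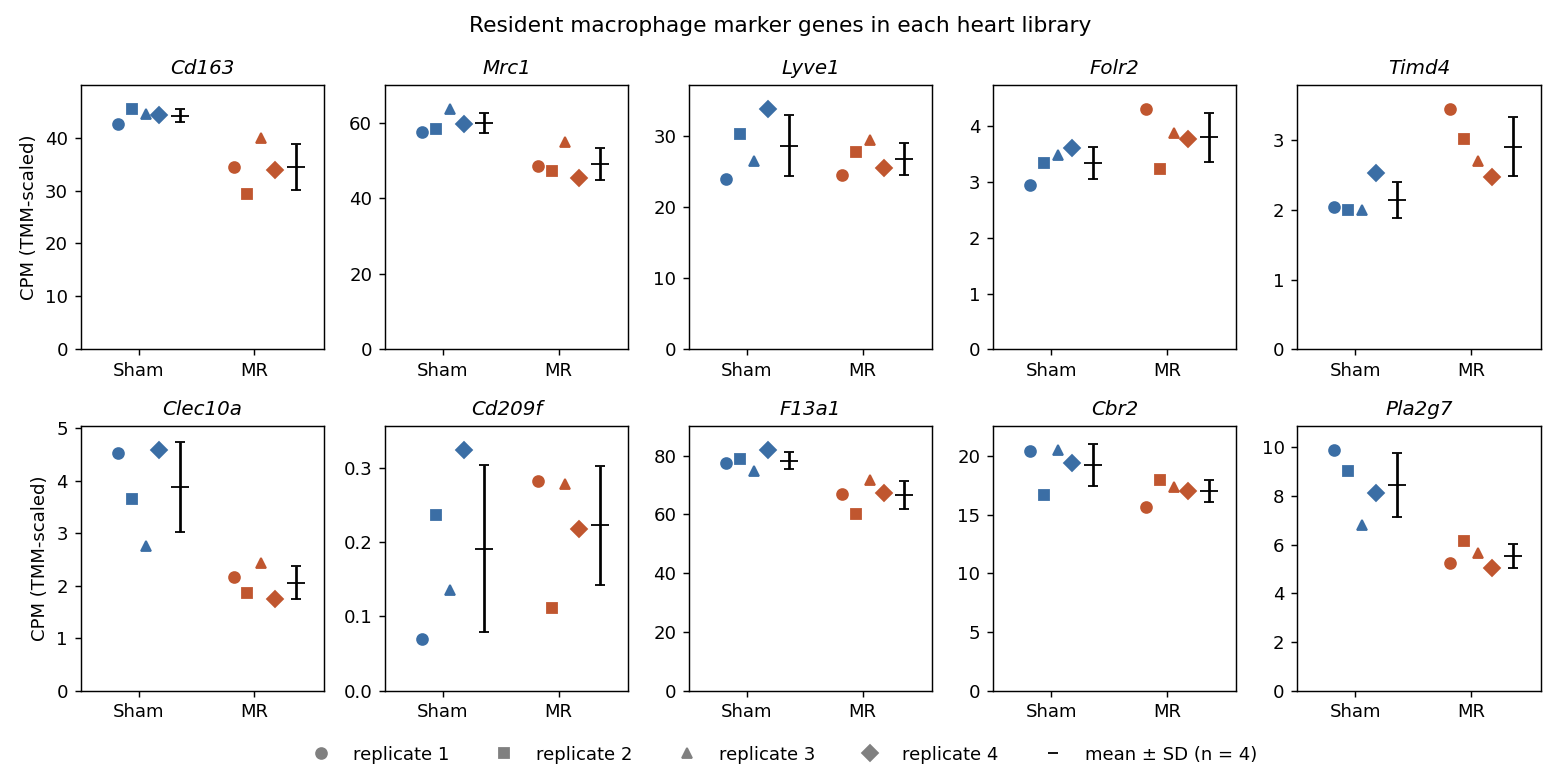
CPM (vertical axis, from 0) of the 10 marker genes in each Sham and MR library (4 per group, symbols by replicate), with the mean and SD of each group in black. Sham and MR values do not overlap for Cd163, Mrc1, Clec10a, F13a1 and Pla2g7, all lower in MR.

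Level per length set the abundant markers apart from the rare ones. As CPM per kilobase of exon over the 8 libraries, the order was Cbr2 at 13.7, F13a1 at 10.7, Lyve1 at 9.5, Mrc1 at 8.55, Cd163 at 7.19, Pla2g7 at 2.4, Folr2 at 2.31, Timd4 at 1.16, Clec10a at 1.02 and Cd209f at 0.104. In Sham, F13a1 at 11.6 ± 0.43 and Lyve1 at 9.82 ± 1.47 differed by little more than the larger of their SDs, and Lyve1 and Mrc1 (9.4 ± 0.419) lay within it (CPM per kilobase, n = 4). Clec10a stood above Timd4 in Sham (1.34 ± 0.298 and 0.985 ± 0.119 CPM per kilobase) and below it in MR (0.708 ± 0.108 and 1.34 ± 0.195).

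Among the scavenger receptors, Cd163, which takes up complexes of haemoglobin and haptoglobin, is encoded on chromosome 6 (124304656 to 124330527, ENSMUSG00000008845, GRCm38, plus strand). Cd163 was at 42.5, 45.4, 44.4 and 44.3 CPM in Sham replicates 1 to 4 and at 34.5, 29.4, 39.9 and 33.8 CPM in MR replicates 1 to 4. The Sham libraries lay within a narrow band, and the highest MR library, replicate 3, stayed below all of them. The mean went from 44.1 ± 1.23 to 34.4 ± 4.29 CPM (SD, n = 4), a log2 fold change of −0.36 (95% interval −0.54 to −0.18, adjusted p = 0.0697). Cd163 passed in DESeq2 (adjusted p = 0.00664) and in limma-voom with quality weights (adjusted p = 0.0315), and in edgeR without Sham replicate 3 (adjusted p = 0.0378). The log2 fold change was −0.20 with the pan-macrophage score as a covariate and −0.42 with the neutrophil score.

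Mrc1, the mannose receptor that clears glycoproteins, lies on chromosome 2 (14229392 to 14332057, ENSMUSG00000026712, plus strand). Mrc1 was at 57.7, 58.4, 63.7 and 59.8 CPM in Sham and 48.6, 47.2, 55.0 and 45.3 CPM in MR. The groups did not overlap, and MR replicate 3 was again the MR library nearest to Sham. The log2 fold change was −0.29 (95% interval −0.44 to −0.14, adjusted p = 0.083), with DESeq2 and limma-voom past the threshold (adjusted p 0.0114 and 0.0415). Mrc2, the related collagen-uptake receptor of mesenchymal cells, went the other way, from 17.9 ± 1.6 to 22.7 ± 1.41 CPM (n = 4 per group, SD; log2 fold change 0.34, adjusted p = 0.0758).

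Lyve1, a hyaluronan receptor, lies on chromosome 7 (110850607 to 110863239, ENSMUSG00000030787, minus strand). Lyve1 was at 24.0, 30.3, 26.5 and 33.8 CPM in Sham and 24.5, 27.7, 29.4 and 25.5 CPM in MR. The MR values fell inside the Sham range, and the log2 fold change was −0.10 (95% interval −0.32 to 0.12, adjusted p = 0.697). Its sign turned with either covariate, to 0.01 with the pan-macrophage score and 0.03 with the neutrophil score. All 6 lymphatic endothelial markers were tested and none passed in edgeR (2 at an unadjusted p under 0.05); their summed level was 111 to 144 CPM in Sham and 120 to 139 CPM in MR. Prox1 gave the largest part of that sum, with a mean of 68.6 CPM in Sham and 70.5 CPM in MR. Of these 6, Reln was at a log2 fold change of −0.59 (adjusted p = 0.1) and Flt4 at 0.28 (adjusted p = 0.209). Ccl21a and Mmrn1 were also negative (−0.22 and −0.2), and Prox1 and Pdpn were both at 0.04. The sum thus does not show how the other lymphatic genes moved. The part of lymphatic RNA in the Lyve1 value was not tested. Of 8 tested genes of hyaluronan synthesis and binding, 0 passed in edgeR (2 at an unadjusted p under 0.05), with Has3, a hyaluronan synthase, at 0.58 (adjusted p = 0.134).

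Timd4, a receptor for phosphatidylserine on dying cells, lies on chromosome 11 (46810800 to 46844332, ENSMUSG00000055546, plus strand). Timd4 was at 2.04, 1.99, 2.0 and 2.53 CPM in Sham and 3.44, 3.01, 2.7 and 2.46 CPM in MR. Of the MR libraries, 3 lay above every Sham library, and MR replicate 4 lay just under Sham replicate 4. The log2 fold change was 0.44 (95% interval 0.10 to 0.77, adjusted p = 0.201), and it was 0.75 with the neutrophil score as a covariate and 0.43 with the pan-macrophage score (adjusted p 0.999 and 0.832). Within a library, the ratio of Timd4 to Cd163, a pair chosen after their values were seen, was 0.0481, 0.0438, 0.0452 and 0.0571 in Sham and 0.0998, 0.102, 0.0676 and 0.0729 in MR. All MR ratios were above all Sham ratios. Of 12 other tested genes for recognising dying cells, including Mertk, Axl and their ligand Gas6, 0 passed in edgeR (2 at an unadjusted p under 0.05). Cd300lf, an inhibitory receptor of myeloid cells, was at −1.83 (adjusted p = 0.116).

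Folr2, the folate receptor of macrophages, lies on chromosome 7 (101839988 to 101857194, ENSMUSG00000032725, minus strand). Folr2 was at 2.95, 3.34, 3.49 and 3.61 CPM in Sham and 4.31, 3.24, 3.88 and 3.77 CPM in MR, with overlapping groups (log2 fold change 0.18, 95% interval −0.10 to 0.47, adjusted p = 0.555). Folr2 shares exon bases with Gm10602 on the other strand, and 52.6% of the 50-base words in its transcripts also occur in transcripts of another gene. The sources used here do not name the strand setting of the counts, so the Folr2 value is uncertain. The mean of Gm10602 was 1.82 ± 0.214 CPM in Sham libraries and 2.08 ± 0.261 CPM in MR libraries (n = 4, SD). Of 3 tested genes of folate uptake and use, 0 passed in edgeR (1 at an unadjusted p under 0.05).

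The windows of 250 bases before the RefSeq start (GRCm38.p6) were read for 8 of the 10 genes, in 10 windows; Lyve1 and Clec10a were not matched. Motifs of macrophage regulators were searched on both strands. They were AGGAAGT, a core bound by PU.1, TGCTGAC, a MAF half-site, GGGTGTG, a KLF core, and the composite of an ETS and an IRF factor, GGAA and GAAA with any 2 bases between them. The composite was added with the windows in view. It was found for Folr2 and Timd4, and in 2.3% of 32817 windows of all genes. Both windows are shown because they carry this composite, given in capitals. The Folr2 window is chr7:101857191-101857440, minus strand, and the Timd4 window is chr11:46810549-46810798, plus strand, both printed 5′ to 3′ along the gene.
Folr2: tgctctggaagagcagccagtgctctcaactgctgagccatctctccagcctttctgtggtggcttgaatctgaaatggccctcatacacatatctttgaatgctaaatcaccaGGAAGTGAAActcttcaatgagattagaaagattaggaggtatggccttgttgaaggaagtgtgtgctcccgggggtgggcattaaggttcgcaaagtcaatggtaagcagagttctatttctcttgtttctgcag
Timd4: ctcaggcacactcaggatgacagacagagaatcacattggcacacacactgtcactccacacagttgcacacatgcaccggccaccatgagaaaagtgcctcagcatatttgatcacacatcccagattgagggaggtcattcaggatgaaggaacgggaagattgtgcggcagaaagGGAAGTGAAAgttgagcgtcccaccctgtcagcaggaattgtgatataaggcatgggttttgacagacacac
In Folr2 the composite spans bases 136 to 127 before the start and overlaps a PU.1 core at 137 to 131, with another such core at 82 to 76. In Timd4 the composite spans bases 72 to 63 before the start. The PU.1 core was also found for Mrc1 and F13a1 (7.69% of all windows), the MAF half-site for Timd4 (3.81%) and the KLF core for none of the 8 (6.93%). These matches describe letters in the windows and were not tested for binding.

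Clec10a, a lectin that binds galactose-type sugars, had the largest fold change of the 10 genes. It lies on chromosome 11 (70156197 to 70170834, ENSMUSG00000000318, plus strand). Clec10a was at 4.53, 3.65, 2.75 and 4.58 CPM in Sham and 2.17, 1.86, 2.44 and 1.74 CPM in MR, from 84 to 212 counts per library. The groups did not overlap, with a narrow gap between Sham replicate 3 and MR replicate 3. The log2 fold change was −0.92 (SE 0.18, adjusted p = 0.0474). The Sham order followed the neutrophil sums, highest in replicates 4 and 1 and lowest in replicate 3, and the log2 fold change was −0.35 with the neutrophil score as a covariate and −0.65 with the pan-macrophage score (adjusted p 0.999 and 0.803). The part of neutrophil RNA in this result was not tested. In edgeR the call held without Sham replicate 3 (−1.06, adjusted p = 0.0028) and was lost without each of the other 7 libraries in turn (−1.01 to −0.83, adjusted p 0.0614 to 0.166).

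Mgl2, the neighbouring paralogue of Clec10a, is a close match in sequence: 9.02% of the 50-base words of Clec10a transcripts occur in another gene, mainly Mgl2, so reads could be split between them. Mgl2 was at 15.5, 14.3, 16 and 15.5 CPM in Sham and 13.6, 13.7, 14.4 and 14.4 CPM in MR. Its log2 fold change was −0.13 (adjusted p = 0.444), with groups that overlapped. The ratio of Clec10a to Mgl2 in a library was 0.292, 0.255, 0.171 and 0.296 in Sham and 0.159, 0.136, 0.17 and 0.121 in MR. Thus no MR ratio reached a Sham ratio, although Sham replicate 3 and MR replicate 3 were nearly equal. Of 10 tested lectin genes of macrophages other than the markers, 1 rose and 0 fell. Clec7a, the beta-glucan receptor, rose in MR: its mean was 2.23 ± 0.309 CPM in Sham and 4.47 ± 0.814 in MR (n = 4, SD; log2 fold change 1.0, adjusted p = 0.0201). The Clec7a call was lost when Sham replicate 2 or 4, or MR replicate 1, 2 or 3, was left out (adjusted p 0.0597 to 0.0815). It was also lost with the pan-macrophage or neutrophil score as a covariate (adjusted p 0.688 and 0.999). Clec12a, an inhibitory receptor of myeloid cells, went from 2.92 ± 0.362 to 4.34 ± 0.224 CPM without overlap (log2 fold change 0.57, adjusted p = 0.065).

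**Figure D2:**
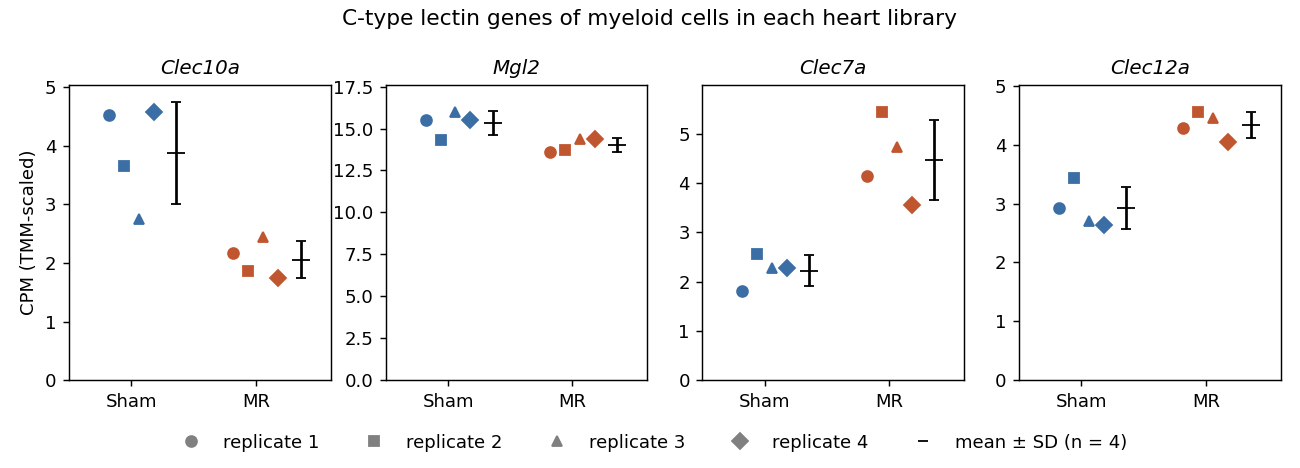
CPM (vertical axis, from 0) of 4 myeloid lectin genes in each Sham and MR library (4 per group, symbols by replicate), with mean and SD in black. Clec10a is lower in MR, its neighbour Mgl2 overlaps between groups, and Clec7a and Clec12a are higher in MR with no overlap.

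Cd209f, a lectin of the DC-SIGN family, lies on chromosome 8 (4102787 to 4105835, ENSMUSG00000051906, minus strand) and was close to the limit of detection. It had 3, 10, 6 and 15 counts in Sham and 14, 5, 12 and 13 counts in MR. The groups overlapped, and the log2 fold change of 0.21 had a 95% interval of −0.82 to 1.24 (adjusted p = 0.884). The interval is wide, so neither the sign nor the size of a difference was settled. Its value is also uncertain because 29.8% of its 50-base words occur in transcripts of other genes, mainly Cd209g. Without Sham replicate 1 the sign turned (−0.07).

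The enzymes among the markers had negative fold changes, and Pla2g7 alone of the 3 passed. Pla2g7, a secreted phospholipase that breaks down platelet-activating factor, lies on chromosome 17 (43568098 to 43612201, ENSMUSG00000023913, plus strand). Pla2g7 was at 9.87, 9.0, 6.78 and 8.12 CPM in Sham and 5.26, 6.16, 5.65 and 5.04 CPM in MR. No MR library reached the lowest Sham library, replicate 3. The log2 fold change was −0.61 (SE 0.12, adjusted p = 0.0492). It was −0.38 with the neutrophil score as a covariate and −0.69 with the pan-macrophage score (adjusted p 0.999 and 0.631). The call held in edgeR without Sham replicate 3 (−0.71, adjusted p = 0.00392) and was lost without each of the other 7 libraries (−0.67 to −0.54, adjusted p 0.0632 to 0.151). Pla2g7 shares exon bases with 1700071M16Rik on the other strand, which had 2 to 20 counts per library, against 243 to 425 for Pla2g7.

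Of 7 other genes that make, bind or break down platelet-activating factor, 0 passed in edgeR (2 at an unadjusted p under 0.05). Lpcat2, an enzyme that makes it, went from 1.1 ± 0.187 to 1.69 ± 0.28 CPM without overlap (n = 4 per group, SD; log2 fold change 0.62, adjusted p = 0.159), and its relative Lpcat1 was at 0.24 (adjusted p = 0.297). Both had the opposite sign to Pla2g7.

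F13a1, the catalytic subunit of the clot-stabilising transglutaminase factor XIII, lies on chromosome 13 (36867178 to 37050244, ENSMUSG00000039109, minus strand). F13a1 was at 77.6, 78.8, 74.8 and 81.8 CPM in Sham and 67.0, 60.2, 71.7 and 67.3 CPM in MR. The groups did not overlap, and the log2 fold change was −0.23 (95% interval −0.38 to −0.09, adjusted p = 0.124). It was −0.09 with the pan-macrophage score as a covariate and −0.19 with the neutrophil score, and F13a1 passed in DESeq2 (adjusted p = 0.0355). The summed markers of platelets and megakaryocytes, which also make F13a1, were 5.14 to 6.78 CPM in Sham and 6.31 to 7.22 in MR, and Gp1ba, a platelet receptor, was at 0.29 with no overlap (adjusted p = 0.294). F13b, which encodes the carrier subunit, had 0 counts in all 8 libraries.

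Cbr2, a mitochondrial carbonyl reductase, lies on chromosome 11 (120729489 to 120732114, ENSMUSG00000025150, minus strand). Cbr2 was at 20.4, 16.7, 20.5 and 19.4 CPM in Sham and 15.7, 18.0, 17.4 and 17.0 CPM in MR. Sham replicate 2 lay inside the MR range, and the log2 fold change was −0.18 (SE 0.08, adjusted p = 0.337). Of 4 other tested carbonyl reductases, 0 passed in edgeR (0 at an unadjusted p under 0.05), with Dcxr at −0.31 (adjusted p = 0.347).

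Genes of macrophages in general did not follow the markers that were lower. Of 15 pan-macrophage markers 0 passed in edgeR (4 at an unadjusted p under 0.05), 13 had positive fold changes and the median was 0.07. Their geometric mean was 13.7, 13.5, 14.1 and 12.7 CPM in Sham and 15, 16.7, 14.3 and 14.3 CPM in MR. Every MR library was above every Sham library, by little between Sham replicate 3 and MR replicates 3 and 4. The 4 genes at an unadjusted p under 0.05 in edgeR had the largest log2 fold changes of the 15. They were Cx3cr1 at 0.72, Aif1 at 0.46, Fcgr1 at 0.39 and Lyz2 at 0.28. The rest lay between −0.07 (Adgre1) and 0.12 (Cd68), so the higher mean came largely from these 4 genes. Lyz2, the macrophage lysozyme, went from 152 ± 11.7 to 185 ± 11.8 CPM (n = 4 per group, SD; adjusted p = 0.102), and Cx3cr1, the fractalkine receptor, from 3.68 ± 1.49 to 6.08 ± 0.917 CPM (adjusted p = 0.19). Csf1r, the receptor that macrophages need to survive, was at a log2 fold change of 0.01 (95% interval −0.16 to 0.17).

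Scaling the libraries to the pan-macrophage markers moved every gene down together, so that the median log2 fold change of all genes was −0.155. With that common shift 5 of the 10 genes were lower past the threshold in edgeR, and genes called lower over the whole table went from 36 to 695 (4.19%). In that fit Cd163 was at −0.51 (adjusted p = 0.0198), Mrc1 at −0.44 (0.0206), F13a1 at −0.39 (0.0393), Clec10a at −1.08 (0.0063) and Pla2g7 at −0.78 (0.00495). Relative to the geometric mean, Cd163 was 3.11 to 3.5 times as high in Sham and 1.76 to 2.78 times in MR, and Mrc1 was 4.22 to 4.73 and 2.82 to 3.83 times. Cbr2 ratios also did not overlap, 1.24 to 1.53 in Sham and 1.05 to 1.21 in MR, although its CPM values did. The geometric mean was itself higher in every MR library, largely through Cx3cr1, Aif1, Fcgr1 and Lyz2, which lowers the MR ratio of any gene. The share of all genes with ratios apart was not counted. Timd4 and Folr2 had overlapping ratios, for Timd4 0.142 to 0.2 in Sham and 0.172 to 0.23 in MR.

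**Figure D3:**
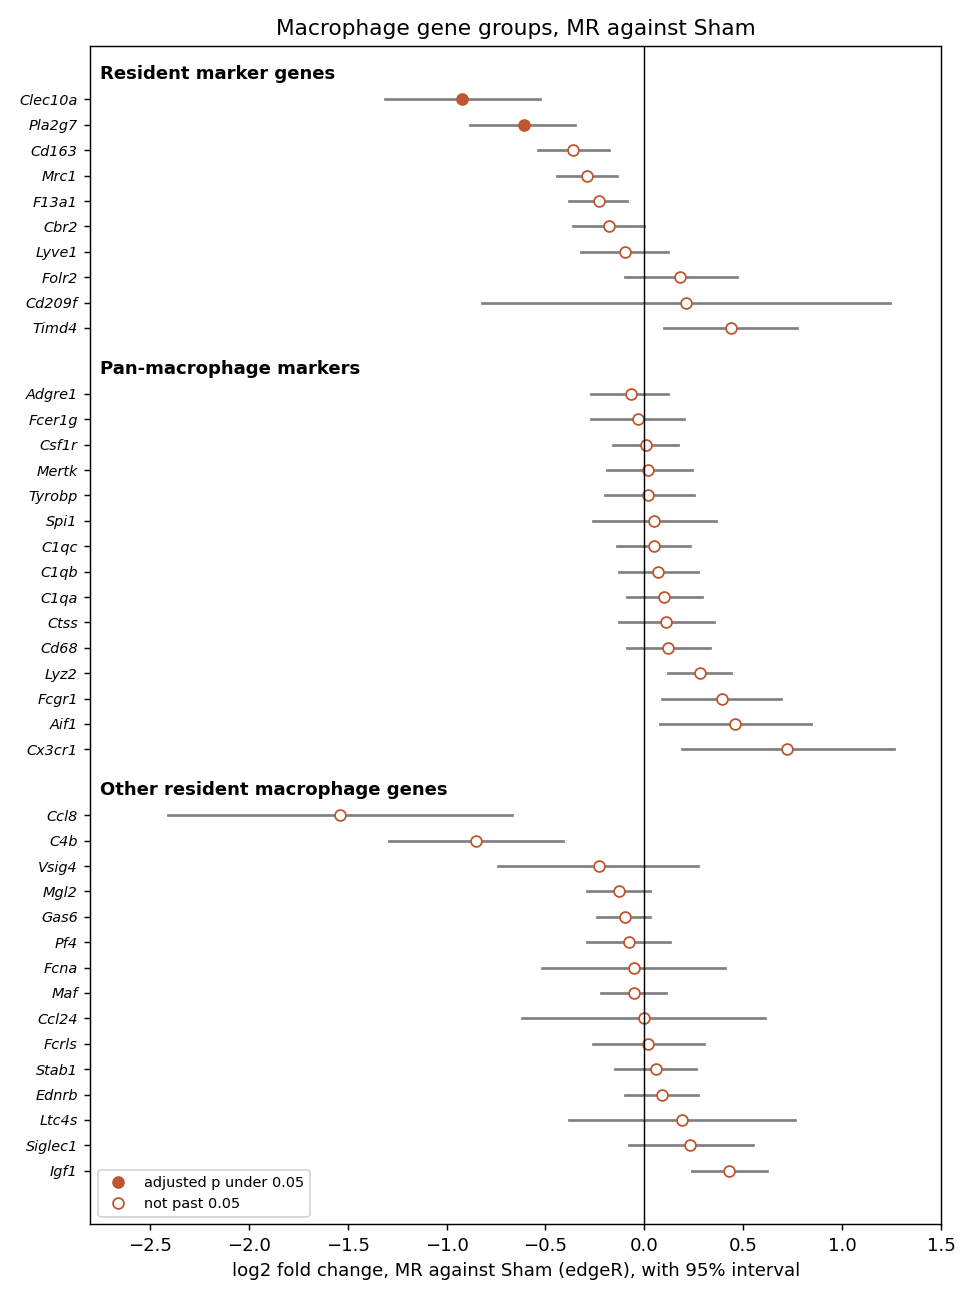
Log2 fold change of MR against Sham (horizontal axis; points, edgeR, n = 4 per group) with 95% intervals (lines) for the 10 resident markers, 15 pan-macrophage markers and 15 of the 16 tested other genes of resident macrophages; filled points passed an adjusted p of 0.05. Clec10a and Pla2g7 are the filled points, and 13 of the 15 pan-macrophage markers lie right of 0.

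Other genes known from resident macrophages were split as well. Of 16 tested, 0 passed in edgeR (4 at an unadjusted p under 0.05), 10 were negative and the median was −0.05. Ccl8, a chemokine of resident macrophages, was at 5.73, 3.29, 2.66 and 5.01 CPM in Sham and 0.809, 2.77, 1.12 and 1.07 CPM in MR. MR replicate 2 overlapped Sham replicate 3, and the log2 fold change was −1.54 (adjusted p = 0.107). C4b, a complement gene also made by fibroblasts, went from 46.3 ± 11.7 to 25.7 ± 4.87 CPM without overlap (n = 4 per group, SD; adjusted p = 0.0873). Igf1, a growth factor made by resident macrophages and fibroblasts, went the other way, from 13.7 ± 1.4 to 18.4 ± 1.02 CPM without overlap (adjusted p = 0.0513). Cd209b, Cd209d, Cd209g and Cd5l, the marker of tissue macrophages in liver and spleen, were too low to be tested.

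Among 15 tested growth factors, cytokines and receptors of macrophages, and factors that set their state, 0 rose and 1 fell in edgeR (3 at an unadjusted p under 0.05). Klf4, a transcription factor of monocytes, macrophages and vessel walls, fell from 31.4 ± 2.89 to 23.7 ± 1.49 CPM (n = 4 per group, SD; log2 fold change −0.41, adjusted p = 0.0474). That call was lost with scaling by library totals (adjusted p = 0.0672), with the filter at 1 CPM (0.0512), with either covariate (0.571 and 0.999) and without Sham replicates 2 and 4 or any MR replicate (adjusted p 0.0678 to 0.166). Csf1, the main macrophage growth factor, was at 51.9, 52.5, 57.4 and 49.9 CPM in Sham and 64.0, 93.2, 64.2 and 77.9 CPM in MR, with no overlap and an adjusted p of 0.065 in edgeR. Csf1 passed in DESeq2 (log2 fold change 0.49, adjusted p = 0.00268), in limma-voom (0.45, adjusted p = 0.0435) and in edgeR without Sham replicate 3 (0.54, adjusted p = 0.0207) or without a filter (adjusted p = 2.18e-07). In edgeR it did not pass when any other library was left out (adjusted p 0.0734 to 0.21). Nor did it pass with the pan-macrophage score (0.23, adjusted p = 0.83) or the neutrophil score (0.40, adjusted p = 0.999) as a covariate. Of 11 tested genes of haem and iron handling, the task of Cd163, 0 passed in edgeR (3 at an unadjusted p under 0.05). Those 3 were negative: Tfrc, the transferrin receptor, at −0.55 (adjusted p = 0.225), Fth1, the ferritin heavy chain, at −0.31 (adjusted p = 0.181), and Nfe2l2, a regulator of antioxidant genes, at −0.17 with no overlap (adjusted p = 0.248). Hmox1, which breaks down haem, was at −0.05 (95% interval −0.24 to 0.14). The summed red cell markers were 309 to 559 CPM in Sham and 376 to 724 in MR.

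Markers of other cells were set beside these values. All 5 cardiomyocyte markers had fold changes below 0, though that of Actn2 rounds to 0, and 0 passed in edgeR (3 at an unadjusted p under 0.05). Tnnt2, the cardiac troponin T, was at −0.36 (adjusted p = 0.128) and the alpha myosin heavy chain gene Myh6 at −0.28 with no overlap (adjusted p = 0.163), where Cd163 was at −0.36 and Mrc1 at −0.29. Of 5 fibroblast markers, Col1a1, a chain of collagen I, rose (log2 fold change 0.81, adjusted p = 0.0483), a call lost without each library other than Sham replicate 3 (adjusted p 0.0772 to 0.145) and with either covariate (0.751 and 0.999). Of 14 tested genes of recruited monocytes and activated macrophages, Clec7a passed and 13 did not (5 of the 14 at an unadjusted p under 0.05 in edgeR). Of these, 9 were positive and 5 negative, with Fabp5 at 0.28 (adjusted p = 0.213) and Chil3 at −2.35 (adjusted p = 0.229). Chil3 was at 1.14, 0.237, 0.27 and 3.07 CPM in Sham replicates 1 to 4 and at 0.162 to 0.335 CPM in MR. Its fold change thus rests on Sham replicates 1 and 4. Ccr2 was at a log2 fold change of 0.15 (95% interval −0.14 to 0.44). The summed level of the list was 58.0 to 80.1 CPM in Sham and 70.6 to 90.4 in MR. Of 9 tested dendritic cell markers 0 passed in edgeR (2 at an unadjusted p under 0.05), and all were positive, with a median of 0.33. Sirpa had the lowest p, at 0.22 (adjusted p = 0.253), and Xcr1 the largest fold change, at 0.68 (adjusted p = 0.344). The sum was 57.0 to 72.9 CPM in Sham and 71.9 to 77.2 in MR. Most of it was Sirpa (mean 32.9 CPM in Sham and 38.4 in MR) and Zbtb46 (20.3 and 22.5). The sum thus mainly follows those genes, while the mean of Flt3 was 0.218 and 0.25 CPM. Flt3, a defining marker, was at a log2 fold change of 0.15 (adjusted p = 0.932), and Ccr7 and Siglech were too low to be tested. The part of dendritic cell RNA in the Clec10a value was not tested. Of 8 tested neutrophil markers 0 passed in edgeR, all were negative (7 at an unadjusted p under 0.05), and the median was −3.80; Mmp8, a collagenase of neutrophil granules, was at −3.92 (adjusted p = 0.0513). The part of these cells in the values of the resident markers was not tested.

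The 10 genes also differed in how they varied between libraries. The 10 members had their highest value in Sham replicate 4 for 4 genes, in Sham replicate 3 and MR replicate 1 for 2 each, and in Sham replicates 1 and 2 for 1 each. Likeness was measured as the mean absolute difference between standardised log2 CPM values over the 8 libraries. Cd163 and F13a1 were the most alike pair (0.204 SD units), followed by Cd163 and Mrc1 (0.278), while Clec10a and Timd4 and Timd4 and Pla2g7 were the least alike (1.57 for both). With the group means taken out, Cd163 and F13a1 were still the most alike (0.392). The genes outside the list closest to the mean pattern of the 10 were Ythdf3 (0.341), Myom2 (0.358), Sec63 and Rock1 (0.383 for both) and Nfe2l2 (0.385), where the median of 12169 genes was 0.861. With the group means taken out they were Arih2 (0.348), Fbn2 (0.362), Hic1 (0.37), Ehd4 (0.373) and Mtf2 (0.381). None of these 10 genes passed in edgeR (0 of them at an adjusted p under 0.05, with the lowest 0.135 for Myom2).

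**Figure D4:**
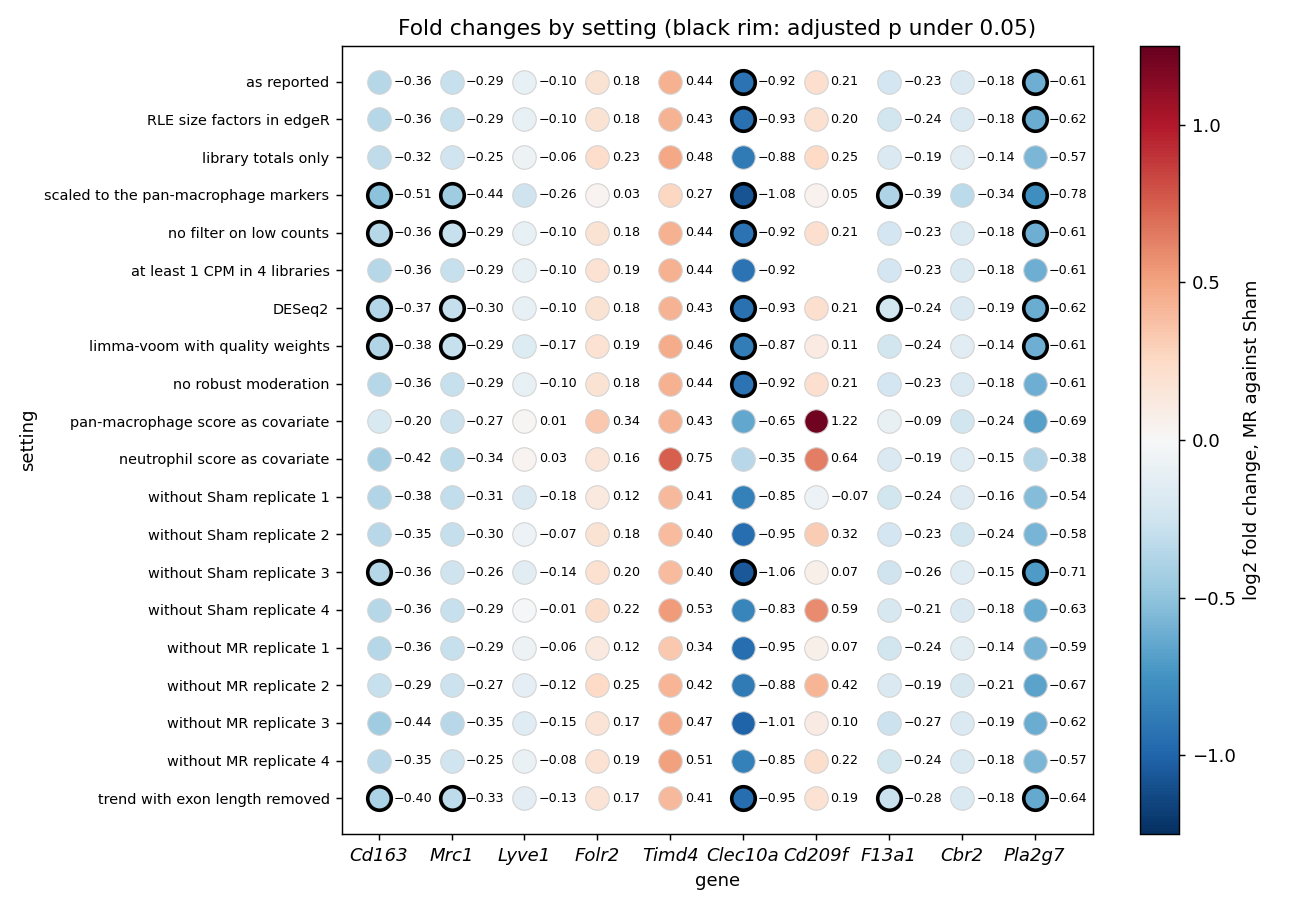
Log2 fold change of each of the 10 marker genes (columns) under each setting of the analysis (rows), by colour and printed value; a black rim marks an adjusted p under 0.05. Clec10a and Pla2g7 stay negative under every setting shown and Timd4 and Folr2 positive, while Lyve1 and Cd209f change sign.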

How the data were processed

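Heart RNA was sequenced in 4 Sham and 4 MR libraries. Per the labels' protocols, frozen tissue was powdered, RNA taken up in TRIzol and libraries made with an ABclonal mRNA kit; HISAT2 2.0.5 and mm10 are named in the submitters' processing notes. The table deposited by the authors holds raw whole-number counts per Ensembl gene. The sources used here name neither the counting tool nor the strand setting. Symbols and positions came from GENCODE M21 (GRCm38), and columns were matched to libraries by title.

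Genes were filtered with filterByExpr (minimum count 10, total 15), scaled by TMM and tested by quasi-likelihood in edgeR 4.0.16 (R 4.3.3, robust moderation), with Benjamini-Hochberg adjustment over all 16603 genes tested. Adjusted p-values are from this test unless another tool is named. DESeq2 1.42.0 and limma 3.58.1 (voom) were alternatives, as were covariates of mean log2 CPM of the pan-macrophage or neutrophil markers, other scalings and filters, and leaving out each library. Removing a trend with exon length was added after seeing the data. On counts simulated for MR against Sham over 16603 genes, the test recovered 94% of 100 genes changed by 1 and 61% of 100 changed by 0.5 on the log2 scale, with 8 false calls. The changed genes were drawn from those with a mean above 1 CPM, and counts were drawn independently for each gene. Genes as low as Cd209f and shifts shared by many genes of a library were thus left out, so recovery in the real libraries may differ. Total counts of 42291511 to 58658094 set the precision, and 1 count was 0.0167 to 0.0237 CPM.

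The marker genes and lists were chosen with earlier results of these data known. The rule for names takes the 10 markers, of each list the 3 genes with the lowest p and any past the threshold, defining markers near 0, and the 5 genes most alike in pattern among those of at least 1 CPM, predicted genes left out. Csf1r, Ccr2, Hmox1 and F13b are named outside this rule, chosen after their values were seen. Not all genes the rule takes are printed, and some are not reported here.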

Additional observations from a re-analysis of the deposited data

Results flagged for a closer look

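In 68 groups of 4 libraries examined, 3 held a library whose distance from the nearest other took up most of the group's range; chance alone marks about 5% of such groups. Timd4 was at 2.53 CPM in Sham replicate 4, against 1.99 to 2.04 in the other Sham libraries. The summed level of the other resident macrophage genes was 306 CPM in MR replicate 3, against 318 to 319 in the other MR libraries. The summed fibroblast markers were 1500 CPM in Sham replicate 3, against 1570 to 1580 in the other Sham libraries.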

How the results depend on the processing

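The number of the 10 marker genes past the threshold was 2, both lower in MR. It was 5 with scaling to the pan-macrophage markers, in DESeq2 and with the exon length trend removed (chosen after seeing the data), 4 without a filter and in limma-voom, 1 without robust moderation, and 0 with library totals only, with at least 1 CPM in 4 libraries and with either covariate. At an unadjusted p under 0.05 in edgeR there were 6 with library totals (2565 of all 16603 genes), 6 with the stricter filter (2135 of 13355) and 3 with either covariate. With a library left out, the number past the threshold was 3 without Sham replicate 3 and 0 without any other library. The count over all genes was 76, and 786 with scaling to the pan-macrophage markers, 936 without a filter, 617 in DESeq2, 457 in limma-voom, 304 with the length trend removed, 3 to 887 with a library left out and 0 with either covariate (1023 genes at an unadjusted p under 0.05 in edgeR with the pan-macrophage score and 578 with the neutrophil score). The pan-macrophage geometric mean and the summed neutrophil markers did not overlap between the groups, so covariate and group are hard to separate. Signs turned for Cd209f without Sham replicate 1 (−0.07, with a range of −0.07 to 0.59 when a library was left out) and for Lyve1 with the pan-macrophage (0.01) and neutrophil (0.03) covariates; the cause was not tested. Over the alternatives, 149 of 189 fold changes of the markers kept their sign and side of the threshold, most of them for genes that had not passed. The calls held in 8 of 19 alternatives for Clec10a and in 7 of 19 for Pla2g7. Cd209f had no adjusted p in DESeq2 and was counted there as kept. No paired analysis was possible because the replicate numbers are in accession order and the labels pair no libraries. The filter at 1 CPM leaves no value for Cd209f, which low counts limit most.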
